A study of Rattus norvegicus with 8 samples.

Results

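The Hox genes of the deposited gene list were the 37 entries, of 30560 in all, whose symbol is Hox followed by a cluster letter from a to d and a paralogue number. Cluster A gave 10 of them and clusters B, C and D gave 9 each. The entries were chosen by symbol alone and no measured value entered the choice. RNA had been counted in single nuclei of nodose ganglia, where the vagus nerve has its sensory neurons, from naive Long Evans rats aged 8 weeks, 18 male and 18 female. Each of 12 pools combined the ganglia of 1 side from 6 rats, with 3 pools for each labelled sex and side. With 18 rats of each sex and 6 in each of 3 pools a side, left and right pools of a sex draw on the same rats. All pools were then spread over 8 sublibraries. Pools are named by label, with M or F for sex, L or R for side and a number, as in ML1 or FR3.

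Hox genes encode homeodomain transcription factors that give cells their position along the head to tail axis of the embryo. They lie in paralogous clusters, and genes nearer the 3′ end of a cluster, with low paralogue numbers, are switched on earlier and further forward than genes nearer the 5′ end. The hindbrain, its neural crest and the vagal ganglia are patterned by the genes of the 3′ part, and many neurons keep part of this expression in the adult. Nodose neurons arise from a placode, whereas jugular neurons arise from neural crest and carry Prdm12, a factor of pain-sensing neurons. In rodents the nodose and jugular ganglia lie together and are commonly dissected as 1 body.

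Promoter sequence is shown for 4 genes whose summed levels ran opposite to those of Hoxb3 and Hoxb5 in the comparison named. Hoxd1 and Hoxd3 were higher in jugular-like than in other neurons, and Hoxd4 and Hoxa2 were higher in vessel nuclei than in neurons. Hoxb4 was not lower in vessel nuclei than in neurons, and Hoxa2 was lower in jugular-like than in other neurons. The RefSeq promoter table held 19 of the 37 members. Each sequence below is the 250 bases before the gene's start on its own strand, 5′ to 3′, in build GRCr8. The positions are chr3:80072791-80073040 (plus strand) for Hoxd1, chr3:80045876-80046125 (plus) for Hoxd3, chr3:80021636-80021885 (plus) for Hoxd4 and chr4:82595693-82595942 (minus) for Hoxa2. Capitals mark matches, on either strand, to the Hox-Pbx motif TGATTNAT, to the nuclear receptor half-site AGGTCA, which retinoic acid receptors bind in pairs, or to the CCAAT box.
Hoxd1: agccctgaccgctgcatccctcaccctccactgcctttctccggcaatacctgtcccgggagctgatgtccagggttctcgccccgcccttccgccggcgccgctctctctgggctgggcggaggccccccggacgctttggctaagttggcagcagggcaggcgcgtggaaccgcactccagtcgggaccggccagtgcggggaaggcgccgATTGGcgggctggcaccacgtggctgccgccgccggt
Hoxd3: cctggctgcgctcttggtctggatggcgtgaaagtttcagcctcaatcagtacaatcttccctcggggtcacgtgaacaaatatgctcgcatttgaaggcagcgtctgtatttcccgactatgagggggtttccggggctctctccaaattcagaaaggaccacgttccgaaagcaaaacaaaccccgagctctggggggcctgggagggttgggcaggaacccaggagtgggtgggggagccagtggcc
Hoxd4: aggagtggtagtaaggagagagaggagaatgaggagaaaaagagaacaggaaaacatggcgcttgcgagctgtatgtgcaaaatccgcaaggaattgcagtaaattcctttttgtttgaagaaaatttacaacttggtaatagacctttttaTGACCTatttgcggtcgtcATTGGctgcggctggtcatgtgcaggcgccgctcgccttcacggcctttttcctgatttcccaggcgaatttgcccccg
Hoxa2: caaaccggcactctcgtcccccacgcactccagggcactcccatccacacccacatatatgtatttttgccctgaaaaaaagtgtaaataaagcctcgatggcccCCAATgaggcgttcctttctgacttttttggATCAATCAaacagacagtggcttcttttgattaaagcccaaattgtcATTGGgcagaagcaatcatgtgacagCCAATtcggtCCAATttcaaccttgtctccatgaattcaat

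The Hoxa2 stretch held 1 Hox-Pbx match and 4 CCAAT matches, and the Hoxd4 stretch 1 half-site and 1 CCAAT match. The Hoxd1 stretch held 1 CCAAT match and the Hoxd3 stretch held none of these letters. Among 33469 promoters of the same length, 2.82% held the Hox-Pbx motif, 14.1% the half-site and 34.0% a CCAAT box. Of the 19 Hox promoters, 2, 3 and 11 held them. GC content was 71.6% in the Hoxd1 stretch with 25 CpG dinucleotides, 57.2% with 11 in Hoxd3, 47.2% with 12 in Hoxd4 and 45.2% with 6 in Hoxa2. The medians over all promoters were 51.2% and 5. These matches describe the letters and were not tested against expression.

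The 36738 nuclei kept had a median of 2680 unique molecular identifiers (UMIs, counted RNA molecules), and pools held from 7139364 to 19456287 UMIs. Each nucleus had its own barcode name. That name carries the sublibrary, so sharing of barcodes between sublibraries was not examined. Nuclei were clustered with every Hox gene left out and named by marker likeness, giving 25143 neurons, 4352 satellite glia, 2106 myelinating Schwann cells, 927 vessel nuclei (endothelial and mural together), 722 skeletal muscle nuclei and 71 fibroblasts. A further 1307 nuclei stayed unnamed, and 4 clusters were set aside. UMIs of the Y-linked genes Kdm5d and Eif2s3y went against the label in 2 pools: ML1 had 2.13 CPM (counts per 1000000 UMIs) where the other male-labelled pools had 83.5 to 90.7, and FL1 had 87.9 where the other female-labelled pools had 1.51 to 3.12. Results by labelled sex are therefore also given without both.

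Hox RNA in these ganglia came almost entirely from paralogue groups 3 to 5 and chiefly from the B cluster. The 37 genes had 17827 UMIs, 0.0127% of all, and Hoxb3 (6013), Hoxb4 (4787) and Hoxb5 (4226) held 84.3% of them. Hoxb3 and Hoxb4 pattern the caudal hindbrain, and Hoxb5 acts in vagal neural crest. Next came Hoxa3 (816 UMIs), needed for thymus and carotid body development, then Hoxc4 (750), Hoxb6 (447) and Hoxa2 (216), which patterns the pharyngeal arches. No other member reached 200 UMIs: 21 members had between 1 and 199, and 9 had none.

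The 5′ parts of the clusters were close to silent in nuclear RNA. The 20 members of groups 7 to 13 had 66 UMIs together, 0.370% of the Hox UMIs, of which Hoxd8 had 23 and Hoxb7 15. The 9 members with no UMI were all in these groups, and 3 counts of the total, the limit that a count of 0 allows, are 0.0214 CPM. By cluster, B had 15497 UMIs, A 1178, C 780 and D 372. Hoxa10 and Hoxb2 had no entry under those symbols and were not analysed here.

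Levels of different genes can be set side by side only per length, since a long gene gives more nuclear RNA. Per kb of gene span (RefSeq GRCr8), the level over all nuclei was 13.7 CPM in Hoxb5, 13.2 in Hoxb4, 2.11 in Hoxc4 and 1.74 in Hoxb3. Hoxb5 was thus 7.84-fold above Hoxb3 per kb, although Hoxb3 had more UMIs. The submitters' notes name the build mRatBN7.2, so the spans counted may differ from these. The highest member per kb was Hoxa2 in cluster A (0.367 CPM per kb), Hoxb5 in B, Hoxc4 in C and Hoxd1 in D (0.317 CPM per kb). Hoxa3 had 0.133 CPM per kb, below Hoxa2 in the same cluster. Groups 3 to 5 made up 96.0% of the summed level per kb and 95.2% without length.

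Some spans overlap, and the strand setting of the authors' counting is not given in the sources used here. In GRCr8 the span of Hoxa3 overlaps Hoxa4, Hoxa5 and Hoxa6, and that of Hoxc6 overlaps Hoxc4 and Hoxc5. Hoxb3 overlaps LOC102550580, Hoxb5 and Hoxb6 each overlap the opposite-strand gene Hoxb5os, and Hoxd4 overlaps the microRNA gene Mir10b. Reads of such pairs cannot be told apart from these counts.

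**Figure D1:**
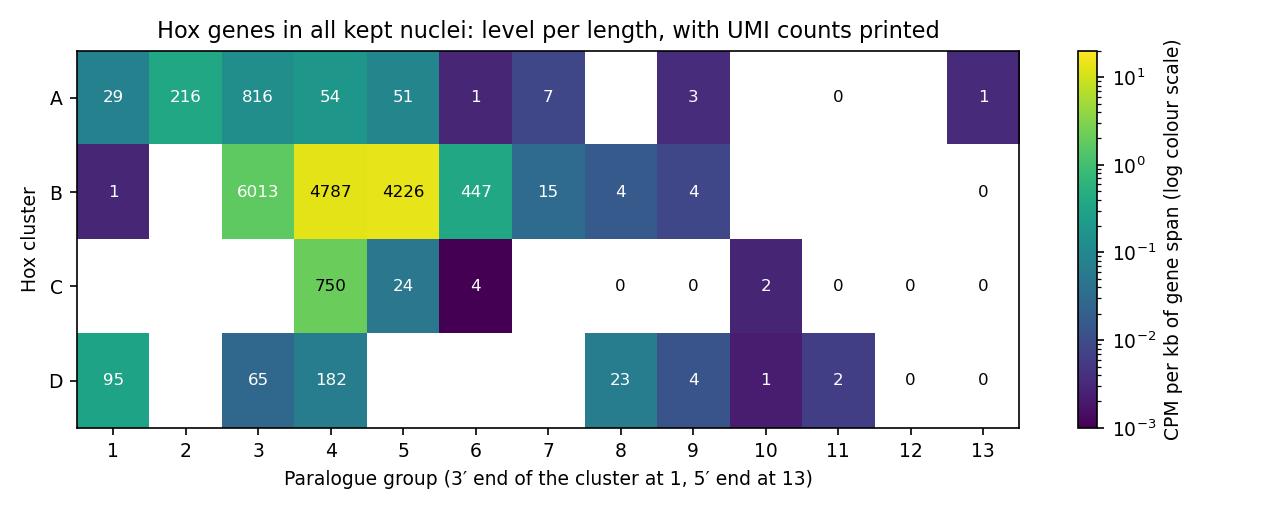
Hox genes by cluster (A to D) and paralogue group (1 to 13). The shade gives the level over all kept nuclei in CPM per kb of gene span on a log scale, and the printed number gives UMIs; blank squares have no entry and squares marked 0 have no UMI. The bright squares lie at Hoxb4 and Hoxb5 (13.2 and 13.7 CPM per kb), and groups 7 to 13 hold 66 UMIs.

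In neurons, the B cluster genes were found in every pool. Hoxb3 ranged from 35.3 to 54.0 CPM over the 12 pools with a median of 47.8 (mean 47.3 ± 5.21, SD, n = 12). Hoxb4 ranged from 22.2 to 47.9 CPM (mean 35.02 ± 8.01), and Hoxb5 from 20.2 to 41.1 (mean 30.8 ± 7.38). Relative to its mean, Hoxb3 varied least from pool to pool.

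The lower members were present in neurons of all pools. Hoxa3 ranged from 4.15 to 8.67 CPM (median 6.10), Hoxc4 from 3.37 to 6.38 (median 5.26), Hoxb6 from 2.09 to 5.67 (median 3.28) and Hoxa2 from 0.705 to 2.35 (median 1.46). Hoxd1 and Hoxd4 were lower, with medians of 0.471 and 0.430 CPM and at least 1 pool at 0 in each.

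Neurons fell into 22 clusters, and the level of Hox RNA separated them along the jugular markers. In 5 clusters Prdm12 stood at 77.7 to 157.8 CPM, and there the summed Hox level was 15.3 to 37.9 CPM. In the other 17 clusters Prdm12 stood at no more than 17.4 CPM, and the summed Hox level was 80.9 to 199.7 CPM. The 2 ranges do not overlap. Of the 5 clusters, 4 met the jugular marker list (2525 nuclei, led by Tac1 and Calca, by Mdfic2, by Il31ra or by the cold receptor gene Trpm8), and the fifth, N27, stayed without a type. Clusters were formed on these nuclei, so these values, and those of the jugular-like neurons that follow, are a description without a test.

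The 2525 jugular-like nuclei were set beside the 22618 other neurons within each pool. Pools held 24 to 613 jugular-like nuclei, and the median depth was 2747 UMIs against 3045 in the other neurons. The neuron-marker sum was 10295 CPM in the jugular-like and 10997 in the other neurons, while the summed Hox level was 32.1 and 142.6 CPM. Prdm12 stood at 101.8 CPM in the jugular-like and 1.87 in the other neurons.

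The B cluster genes were lower in jugular-like neurons in all 12 pools. Hoxb3 ranged from 4.69 to 23.5 CPM over pools (mean 10.3 ± 4.96, SD, n = 12) in jugular-like neurons and from 43.8 to 55.0 (mean 51.0 ± 3.23) in the other neurons. The highest jugular-like value was that of ML3, where 24 nuclei held 2 Hoxb3 UMIs. Hoxb4 ranged from 0 to 18.3 CPM (mean 7.03 ± 4.90) against 24.5 to 48.7 (mean 37.7 ± 7.32). Hoxb5 ranged from 0 to 7.67 CPM (mean 3.57 ± 2.35) against 23.5 to 43.3 (mean 33.3 ± 6.77). The ranges do not overlap for any of these 3 genes, and the share of all genes without overlap between these sets was not computed. On summed counts the other neurons were 5.57-fold higher for Hoxb3, 6.45-fold for Hoxb4 and 9.39-fold for Hoxb5.

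Of the lower members, Hoxc4, Hoxa3, Hoxb6 and Hoxa2 shared this direction. Hoxc4 had 2 UMIs in jugular-like neurons, both in ML1, and 541 in the other neurons, where it ranged from 3.80 to 6.76 CPM over pools. Hoxa3 had 16 against 611 UMIs, a 3.94-fold difference, and was lower in 12 of 12 pools with no overlap (0 to 3.74 against 4.49 to 8.93 CPM). Hoxb6 had 8 against 333 UMIs (4.29-fold) and Hoxa2 had 4 against 139 (3.58-fold). Both were lower in 11 of 12 pools and their ranges overlapped.

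Hoxd1 and Hoxd3 went the other way, and Hoxd4 had 0.839 CPM (8 UMIs) in jugular-like and 0.455 in the other neurons, higher in 4 and lower in 7 of 12 pools. Hoxd1, which in mouse acts in the development of pain-sensing neurons, had 55 UMIs in jugular-like and 15 in the other neurons, 5.77 CPM (95% exact Poisson interval 4.35 to 7.51) against 0.162 (0.0909 to 0.268), a 35.6-fold difference. Over pools it ranged from 0 to 9.37 CPM (mean 4.66 ± 2.97, SD, n = 12) against 0 to 0.582 (mean 0.178 ± 0.188). It was higher in 10 of 12 pools, and ML3 and FR2 had no Hoxd1 UMI in their jugular-like nuclei. Hoxd3 had 28 against 9 UMIs, 2.94 against 0.0974 CPM, a 30.2-fold difference with 6 of 12 pools higher and 3 lower. Of its 28 UMIs, ML1 held 16 and MR2 held 6. With Hox genes among the variable genes of the clustering, Hoxd3 had 17 against 20 UMIs and the difference was 9.80-fold. The Hoxb5 difference was 6.22-fold at a clustering resolution of 2. Intervals cover counting error only.

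**Figure D2:**
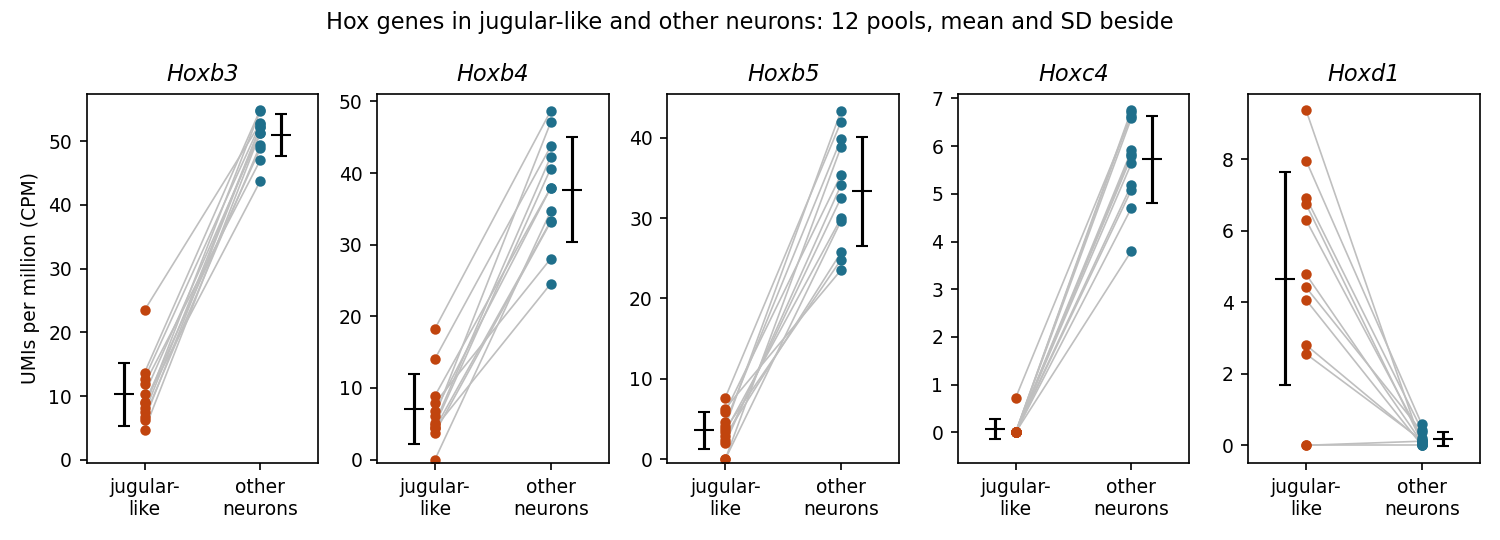
Level of 5 Hox genes per pool (CPM) in jugular-like and in other neurons, with lines joining the values of a pool and bars giving mean ± SD over 12 pools. Hoxb3, Hoxb4, Hoxb5 and Hoxc4 are lower in jugular-like neurons in 12 of 12 pools, and Hoxd1 is higher there in 10 of 12.

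Nuclei were also thinned to 1500 UMIs each, leaving out 538 jugular-like and 3879 other shallower nuclei. The share of nuclei with a UMI of Hoxb3, Hoxb4 or Hoxb5 was then 2.37% in jugular-like and 15.5% in the other neurons, from 5.78% and 32.5% before thinning. The jugular-like share thus lay below that of myelinating Schwann nuclei (5.72% thinned, 8.07% before, median depth 1411 UMIs), and is not read as expression of these 3 genes.

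Proteins of the TALE homeodomain family, such as those of the Meis, Pknox and Pbx genes, bind DNA together with Hox proteins. Of 8 such genes listed, 5 were compared between the 2 sets of neurons, and 4 of these stood at unlike levels. The fifth, Meis3, had 17.3 CPM in jugular-like and 18.8 in the other neurons with overlapping ranges. These genes were chosen after their values were seen. Meis2 ranged from 74.0 to 161.8 CPM over pools in jugular-like neurons and from 6.07 to 11.1 in the other neurons, 12.3-fold higher on summed counts. Meis1 was 2.92-fold higher (70.5 to 121.4 against 22.5 to 43.2 CPM). Pknox2 was 2.93-fold higher (154.7 to 246.3 against 52.9 to 80.9 CPM). Pbx3 was lower in jugular-like neurons, at 54.8 to 111.3 against 180.2 to 224.3 CPM. The ranges over 12 pools do not overlap for any of these 4. The share of all genes without overlap between these sets was not computed, so no trait of the family is read from this.

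Among the other 17 clusters, the balance of the B genes varied more than their sum. Hoxb3 ranged from 18.1 CPM in N19 (led by Spp1, Kcna1 and the neurofilament gene Nefh) to 75.9 in N9 (led by Nxph1 and Rnf220). Hoxb5 ranged from 9.10 CPM in N14 (led by Tmem233) to 80.5 in N20 (led by Cartpt, which encodes a satiety peptide). Hoxb4 varied least, from 17.6 CPM in N12 (led by Csmd3) to 49.9 in N13 (led by Tafa4 and Itm2a).

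The ratio of Hoxb3 to Hoxb5 UMIs ran from 0.325 in N19 to 5.68 in N9. It was above 4 in 5 clusters (N9, N25, N4, N14 and N0) and below 1 in 5 (N19, N20, N13, N26 and N18). A high summed level was found at both ends: N13 had 199.7 CPM with a ratio of 0.833, and N25 had 156.3 CPM with a ratio of 5.67. Median depth was 9581 UMIs in N20 and 6309 in N13, against 2390 in N9 and 2317 in N0, but 1519 in N19, which had the lowest ratio. The part of depth in these ratios was not tested. Hoxb5 was itself among the leading genes of N20.

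Hoxc4 was highest in N18 (17.2 CPM), led by Klhl1, Agtr1a and the receptor gene Ntrk3. Of the 70 Hoxd1 UMIs in neurons, 56 lay in the 5 clusters with high Prdm12, 9 in N19 and 5 in all the others. N19 also had the highest Prdm12 level of the 17 clusters (17.4 CPM).

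**Figure D3:**
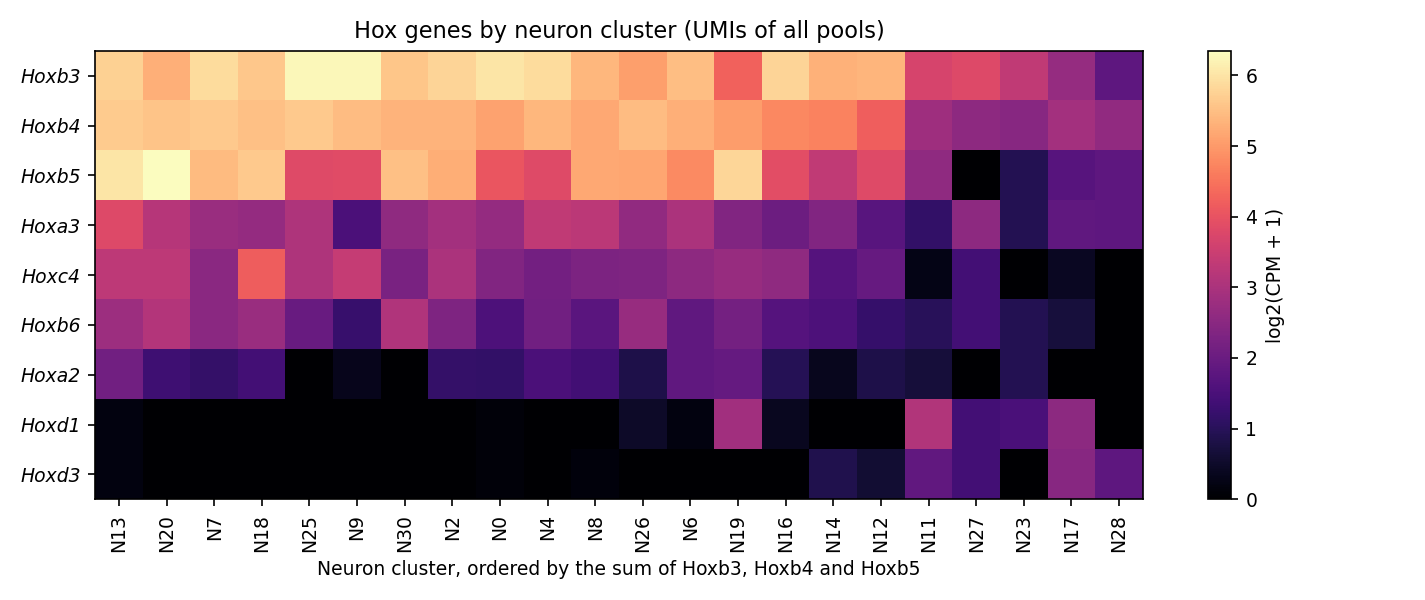
Level of 9 Hox genes as log2(CPM + 1), with UMIs of all pools summed, in the 22 neuron clusters ordered by the sum of Hoxb3, Hoxb4 and Hoxb5. The 5 clusters with high Prdm12 stand at the right (N11, N27, N23, N17 and N28), with dark Hoxb genes, and the Hoxb5 squares of N25, N9, N0, N4, N16, N14 and N12 are darker than their Hoxb3 squares.

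Satellite glia held Hox UMIs at a summed level near that of neurons and Schwann cells at a lower one, both together with neuronal RNA. The summed Hox level was 118 CPM in satellite glia, which wrap the neuron bodies, and 64.1 in myelinating Schwann cells, against 132 in neurons. Satellite glia also had 9894 CPM of the neuron marker list and Schwann cells 4397, against 10932 in neurons. Per 1000 neuron-marker UMIs there were 12.1 Hox UMIs in neurons, 11.9 in satellite glia, 14.6 in Schwann cells and 14.9 in skeletal muscle. These are class averages, and the ratio varied more between clusters. It ran from 1.56 (N28, 6 Hox UMIs) to 19.6 (N25) over neuron clusters and from 6.09 (G5) to 15.7 (G6) over satellite clusters. The part of free neuronal RNA in the glial values was not tested, and they are not read as expression by glia.

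By gene, Hoxb3 had 29.8 CPM in satellite glia against 46.9 in neurons and was lower in 12 of 12 pools. Hoxb5 had 36.6 against 30.7 CPM and Hoxb4 30.5 against 35.5. In Schwann cells Hoxb3 (14.8 CPM) was lower than in neurons in 12 of 12 pools with no overlap, Hoxb4 had 20.2 CPM and Hoxb5 15.6. The share of all genes without overlap between these classes was not computed, so this is a description without a test. Thinned to 1500 UMIs, 14.6% of satellite glia had a UMI of these 3 genes, from 24.3% before, close to the 15.5% of neurons outside the jugular-like clusters.

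Hoxd1 in satellite glia lay mostly in 1 cluster. G5 (704 nuclei, led by Zmat4, Tnc and Cdh15) held 15 of the 22 Hoxd1 UMIs of satellite glia (4.28 CPM) and had the lowest summed Hox level of the class, 67.4 CPM. It also had 20.3 CPM of Prdm12 and 30.3 of Drgx, another gene of jugular neurons. In the satellite clusters G0, G6, G7, G8, G11 and G12, Prdm12 stood at 1.14 to 3.57 CPM and the summed Hox level at 73.6 to 180.0. Satellite glia had 22 Hoxd1 UMIs (1.40 CPM) here, but 8 (0.409 CPM) with Hox genes among the variable genes and 7 at resolutions of 0.5 and 2 (0.368 and 0.511 CPM). With Hox genes among the variable genes and at resolution 0.5, a cluster with Zmat4 and Tnc among its leading genes stayed unnamed and was led by Lypd1 and Trhr.

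Vessel nuclei held a large share of the Hoxd4 RNA. Hoxd4, a retinoic acid responsive gene of the posterior hindbrain, had 78 of its 182 UMIs (42.9%) in vessel nuclei, which held 1.57% of all UMIs. Its level was 35.6 CPM in vessel nuclei (95% exact Poisson interval 28.1 to 44.4) and 0.491 in neurons (0.364 to 0.647), a 72.5-fold difference. Hoxd4 had 2.56 CPM in Schwann cells (10 UMIs), 2.66 in skeletal muscle (6 UMIs) and 1.15 in satellite glia (18 UMIs). In fibroblasts Hoxd4 made up 3 of only 7 Hox UMIs, so it is not read as particular to vessel nuclei. Over pools it ranged from 12.3 to 59.8 CPM in vessel nuclei (median 31.3) and from 0 to 0.894 in neurons. Every pool was higher in vessel nuclei and the ranges do not overlap. The share of all genes without overlap between these classes was not computed, and class values are a description without a test.

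Other D and A genes shared this direction on summed counts, with fewer UMIs. Hoxd8 had 13 of its 23 UMIs in vessel nuclei (5.93 CPM). Hoxd3 had 9 UMIs there, 4.11 CPM against 0.363 in neurons, an 11.3-fold difference with 7 of 12 pools higher and 5 lower. Hoxa2 had 23 UMIs, 10.5 CPM against 1.40, a 7.48-fold difference, also with 7 of 12 pools higher and 5 lower. Hoxb5 was lower than in neurons in 12 of 12 pools (16.4 against 30.7 CPM), Hoxc4 had 2 UMIs and Hoxd1 none, which allows up to 1.37 CPM. Hoxb3 had 30.6 CPM and Hoxb4 39.2 CPM.

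Hoxd4 was found in vessel clusters led by endothelial genes and in those led by mural genes. Among the latter it had 7 UMIs in V2 (20.1 CPM, led by Myh11 and Acta2) and 9 in V5 (49.8 CPM, led by Notch3 and Rgs5). V1, with genes of both kinds among its leading genes, had 7 (18.8 CPM). Neuron-marker RNA was lower here than in any other class, 3704 CPM, and Hox UMIs per 1000 neuron-marker UMIs were 43.0. In the endothelial vessel clusters V0, V6 and V7 the neuron-marker sum was 1257, 1284 and 1619 CPM while the summed Hox level was 200.8, 201.2 and 198.8 CPM, from 65, 21 and 21 Hox UMIs. The highest neuron cluster, N13, had 199.7 CPM from 1357 UMIs, and no order among these 4 is read from so few UMIs. Hoxd4 stood at 58.7 CPM in V0, 67.1 in V6 and 85.2 in V7.

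**Figure D4:**
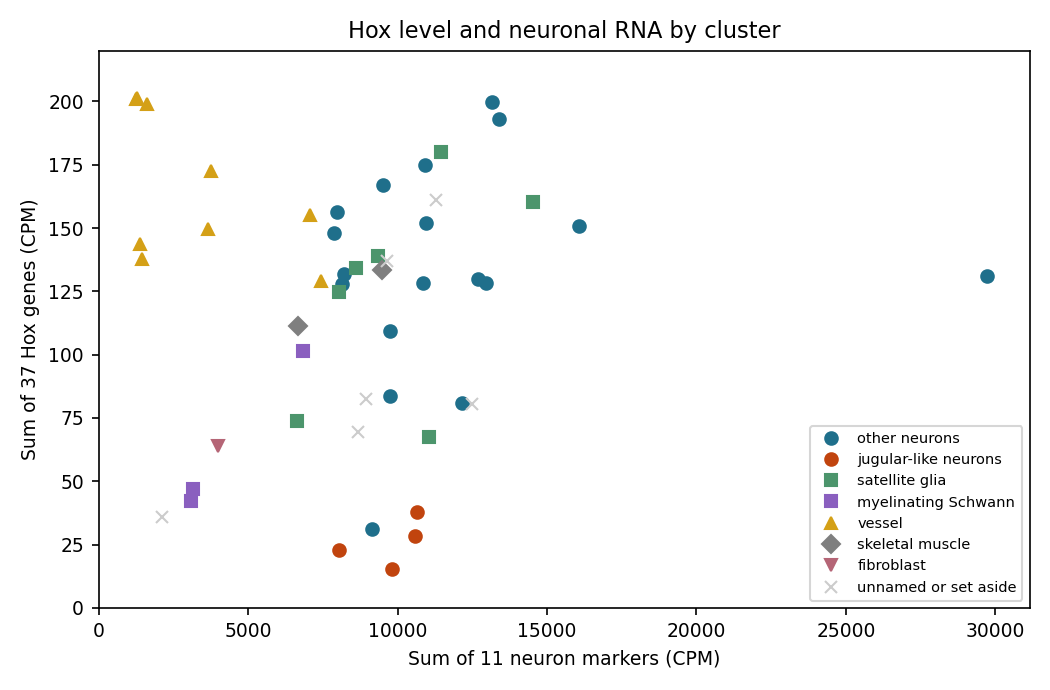
Summed Hox level against summed neuron-marker level (both CPM) for each cluster, 1 point a cluster, marked by class; crosses are unnamed clusters or clusters set aside, and N27 is drawn with the other neurons at 31.0 CPM. The vessel clusters V0, V6 and V7 lie at 198.8 to 201.2 CPM of Hox RNA with 1257 to 1619 CPM of neuron markers, while the jugular-like neurons lie at the bottom with neuron markers as high as in other neurons.

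Side of the body was compared in neurons with edgeR over 14059 genes, where 0.142% of all genes were called. Of 7 Hox genes tested, 0 were called, 1 had an unadjusted p under 0.05 (931 of all genes had one) and DESeq2 called 0. That gene was Hoxb6 (log2 right over left 0.41, SE 0.192, adjusted p = 0.754 with edgeR). The median log2 difference of the 7 was 0.08, against -0.0022 over all genes. Left and right ganglia thus showed no Hox difference past the threshold. The share of jugular-like nuclei among neurons, which bears on every Hox level, was 11.1% ± 9.36 in left and 8.33% ± 3.81 in right pools (SD, n = 6 each), and its part was not tested.

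By labelled sex, edgeR called 0.0356% of genes in neurons and 0 of the 7 Hox genes, with 2 at an unadjusted p under 0.05, as 2399 of all 14059 genes had. The median log2 difference of the 7, female-labelled over male-labelled, was 0.31, against 0.0045 over all genes, and 0.19 without ML1 and FL1. Hoxb4 had 22.7 to 39.8 normalised CPM in male-labelled pools (mean 29.9 ± 6.36, SD, n = 6) and 32.6 to 47.0 in female-labelled pools (mean 40.2 ± 5.53), and these ranges overlap. Its log2 difference was 0.43 (SE 0.120, adjusted p = 0.122 with edgeR). Hoxa3 had 0.41 (SE 0.157, adjusted p = 0.206 with edgeR), and 0.28 without ML1 and FL1 (adjusted p = 0.474). Hoxb4 was called by DESeq2 (log2 0.42, adjusted p = 0.0373), by edgeR without the low-count filter (adjusted p = 0.0126) and by edgeR without MR1 (log2 0.52, adjusted p = 0.0347). Without ML1 and FL1, whose Y-linked genes go against the label, edgeR gave 0.41 (adjusted p = 0.201). The call on Hoxb4 thus depended on the setting while its direction did not. Left and right pools of a labelled sex share rats, and these p-values treat them as independent. The jugular-like share of neurons was 11.4% ± 7.55 for pools labelled male and 8.07% ± 6.58 for those labelled female, and without ML1 and FL1 it was 8.86% ± 4.74 and 9.10% ± 6.81 (SD, n = 5 each). Outside the jugular-like clusters, the Hoxb4 level was 32.7 ± 6.07 CPM where pools were labelled male and 42.7 ± 4.59 where labelled female, and 32.5 ± 6.78 and 43.6 ± 4.43 without ML1 and FL1. The part of that share was not tested.

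In satellite glia, 3 Hox genes were tested. By side edgeR called 0% of genes and 0 Hox genes, with Hoxb4 alone under an unadjusted p of 0.05 (log2 0.48, adjusted p = 0.997 with edgeR). By labelled sex it called 0.00941% of genes and 0 Hox genes, again with Hoxb4 alone under 0.05. Hoxb4 averaged 23.6 ± 8.59 normalised CPM where the label was male and 36.0 ± 9.18 where it was female (log2 0.57, SE 0.177, adjusted p = 0.331 with edgeR). DESeq2 called 0 Hox genes in both. Without MR1 edgeR called Hoxb4 (log2 0.78, adjusted p = 0.0249), and without ML1 and FL1 it did not (0.58, adjusted p = 0.291). No Hox gene passed the filter in Schwann nuclei, where 0.129% of genes were called by side and 0.0369% by labelled sex, or in vessel nuclei, where 0% were called in either. In neurons edgeR called 0 of 8 TALE genes and 0 of 18 tested regulators of Hox clusters, among them the Polycomb and Trithorax genes that hold the clusters closed or open, by side (2 and 0 at an unadjusted p under 0.05) and by labelled sex (3 and 2), and DESeq2 called none of them.

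Tests of whether the side effect differed with labelled sex called 0 genes with edgeR in neurons and in satellite glia. At an unadjusted p under 0.05 they had 631 and 679 genes, among them 1 Hox gene in each (Hoxa3 in neurons).

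**Figure D5:**
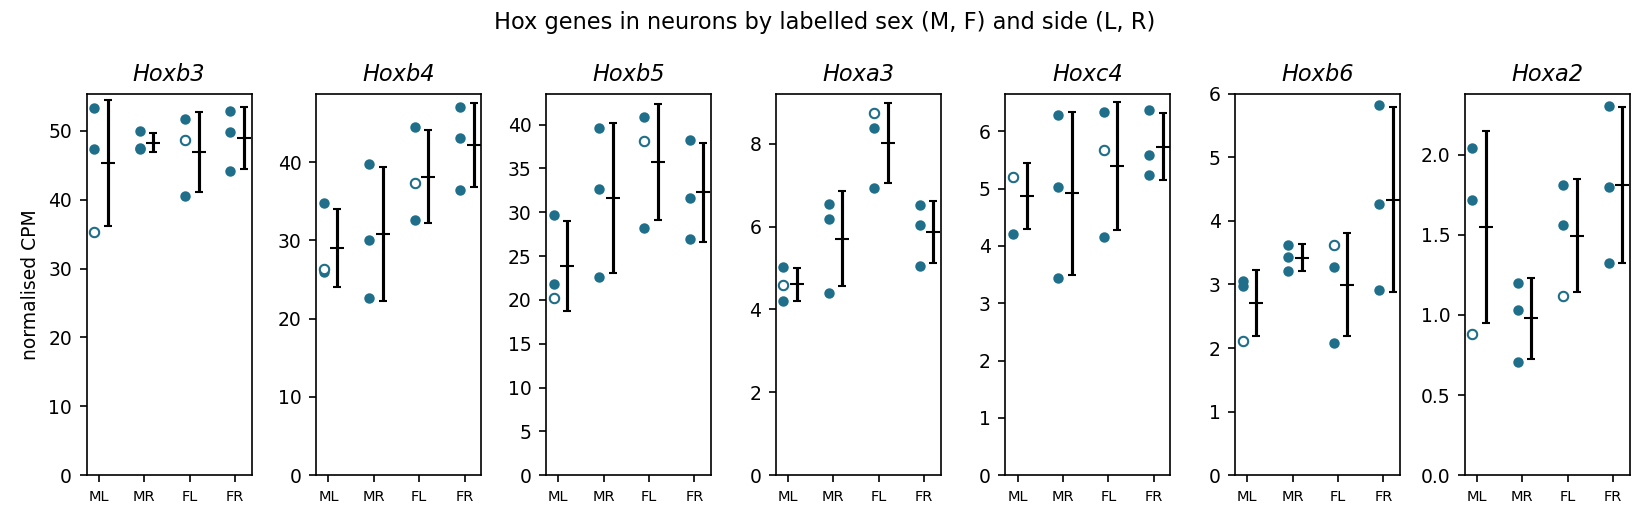
Normalised CPM of 7 Hox genes in neurons, one point per pool, by labelled sex and side, with mean ± SD (n = 3) and open circles for ML1 and FL1. Hoxb4 reaches 22.7 to 39.8 in male-labelled and 32.6 to 47.0 in female-labelled pools, and the ranges overlap.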

How the data were processed

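Single-nucleus RNA was barcoded by the authors with Evercode version 2 kits, per the labels' protocols. The deposited values are raw UMI counts per nucleus and gene, with no normalisation, and matrix sums equalled the deposited transcript counts of all 36741 nuclei. The submitters' processing notes name R 4.3.2, Seurat 4.1.3 and the build mRatBN7.2. Aligner, annotation release and barcode filter: not given in the sources used here.

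Nuclei were kept with 300 genes or more and a mitochondrial share up to 5%. Scrublet in scanpy 1.11.5 called 2 doublets (0.00544%), so it did not work as a caller, and leaving out the 1817 nuclei with the highest scores served as an alternative. Clustering of all nuclei (Python 3.11.15, leidenalg 0.10.2, 3000 variable genes without Hox genes, 30 components, resolution 1) gave the neuron clusters. The nuclei of other classes were clustered again, and the vessel nuclei among them once more. Classes other than neurons were named where at least 3 fixed markers were 2-fold higher, with 1 among the leading genes. Neuron clusters needed at least 3 neuron markers 1.5-fold above Schwann nuclei. Jugular-like clusters needed at least 3 jugular markers 2-fold above the remaining neuron clusters. For neuron and jugular-like names no marker had to be among the leading genes. Names mean likeness to a type. Values are CPM.

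UMIs were summed per pool and tested with edgeR 4.0.16 in R 4.3.3 (quasi-likelihood, TMM, filterByExpr, Benjamini-Hochberg over all genes tested, threshold 0.05), and with DESeq2 1.42.0 as an alternative. Side and labelled sex were additive terms. The method was tested on simulated counts of independent pools, with side changes larger than those printed here for Hox genes. That test does not bear on shared rats or on small differences. Replicates are pools of rats, and left and right pools share rats, so p-values by side treat them as independent. Left and right pools of a number are not stated to be the same rats.

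Members and lists were chosen with earlier results of these data known. The naming rules, the joining of endothelial and mural nuclei, the thinning to 1500 UMIs, the tests of differences between effects and the pool-by-pool values of jugular-like neurons were settled after clusters and Hox levels had been seen. Named with per-pool values were members with at least 200 UMIs, the highest member per kb of each cluster and members called in any fit, beside members and TALE genes chosen after their values were seen. A planned comparison between gated neurons and 1 gene of the TALE list are not reported here.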

Additional observations from a re-analysis of the deposited data

Results flagged for a closer look

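Hoxb3 in neurons of the male-labelled pools had 1 pool far from the others, ML1 at 35.4 normalised CPM where the rest had 47.3 to 53.3. ML1 also had the highest jugular-like share of neurons, 24.2%, and its Y-linked genes go against its label. Outside the jugular-like clusters the lowest male-labelled Hoxb3 level was 43.8 CPM, and 51.4 without ML1 and FL1. The part of that share was not tested. Hoxb4 in satellite glia of the male-labelled pools had MR1 at 40.9 normalised CPM where the rest had 17.7 to 22.3. In 40 groups examined, these 2 pools stood apart by Dixon's test, which chance does in about 1 group of 20.

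4 clusters entered no comparison because markers of another class stood among their leading genes or because they met the sympathetic list. Their summed Hox level was 82.4 CPM in N10, 161.0 in N21 (led by Th), 69.5 in N24 (led by Ddc and Dcc) and 80.7 in G17 (24 nuclei and 5 Hox UMIs, led by Slc6a2 and Dbh), each above the limit that a count of 0 allows.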

How the results depend on the processing

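At resolution 0.5 or 2 and with Hox genes among the variable genes, Hoxb3, Hoxb4 and Hoxb5 stayed lower and Hoxd1 and Hoxd3 higher in jugular-like than in other neurons. Hoxb5 in jugular-like neurons went from 3.57 to 5.23 CPM at resolution 2 (mean over pools 3.57 to 6.45, more than the SD over pools). By side in neurons 20 genes were called, against 81 with DESeq2, 56 without the filter, 4 without ML1 and FL1, and 5 to 24 without a pool, none of them Hox genes. By labelled sex in neurons 5 genes and 0 Hox genes were called, against 294 and 1 with DESeq2, 392 and 1 without the filter, 27 and 0 without ML1 and FL1, and 0 to 309 and 0 to 1 without a pool. In satellite glia 1 gene was called by labelled sex, against 31 without ML1 and FL1 and 0 to 58 (Hox 0 to 1) without a pool. Hoxb3 in satellite glia moved from 29.8 to 36.98 CPM with Hox genes among the variable genes. Causes were not tested.

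Among values of single genes under an alternative, 298 kept direction and side of the threshold, 4 passed it and 16 changed sign. Hoxb3 by labelled sex in neurons went from 0.05 to -0.034 without ML1 and FL1. Leaving out a pool gave log2 ranges of -0.23 to 0.064 for Hoxa2, -0.023 to 0.19 for Hoxb5 and -0.046 to 0.10 for Hoxc4 by side in neurons, -0.030 to 0.10 for Hoxb3 by sex in neurons, and in satellite glia for Hoxb3 -0.16 to 0.076 by side and -0.18 to 0.0040 by sex.

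With the pool number as a replicate block, side called 3 genes in neurons and 0 Hox genes. Deviations of same-numbered left and right pools correlated at -0.11 to 0.15, and 2 of 12 pools correlated best with their own number. These deviations were from means of 3 pools, and ML1 and FL1 were among the pools. The correlations therefore cannot decide whether same-numbered pools share rats. Counts of a few UMIs limit every member outside the 7 most abundant.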
